A study of Sus scrofa with 24 samples.

Results

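The enzymes around pyruvate were examined in the backfat of pigs: pyruvate carboxylase (PC), citrate synthase (CS), the pyruvate dehydrogenase subunits PDHA1, PDHB, DLAT and DLD, the pyruvate dehydrogenase kinases PDK2 and PDK4, and the phosphoenolpyruvate carboxykinases PCK1 and PCK2. Members were the array probes that carried one of these 10 gene names, either as the gene name in the scanner files or through a RefSeq accession. Of the 10 genes, 8 were found, out of 5240 genes named on the array, and they had 40 probes, of which all but 1 were measured. PDHB and PDK2 had no probe by this rule. The numbers of probes were 2 for PC, 7 for CS, 3 for PDHA1, 2 for DLAT, 9 for DLD, 9 for PDK4, 5 for PCK1 and 3 for PCK2. The unmeasured one was a PCK2 probe, which was well above background on 3 of 24 arrays. Each gene is described at its measured probe with the highest mean signal, and its other probes are given beside it.

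Total RNA of subcutaneous adipose tissue of 24 pigs of 115 kg body weight was labelled with Cy3 and hybridised to 1-colour arrays, 1 pig per array and 8 pigs per group. RFIneg pigs came from a line with low residual feed intake and ate ad libitum. RFIplR pigs came from a line with high residual feed intake and were given feed at the level eaten by RFIneg pigs. RFIpl pigs came from the same high line and ate ad libitum. Residual feed intake is the feed eaten beyond what growth and maintenance predict, so a low value marks an efficient animal. RFIneg against RFIpl sets the 2 lines side by side under free feeding, RFIneg against RFIplR sets them side by side at 1 feeding level, and RFIplR against RFIpl sets the feeding levels side by side within the high line. In the first of these, line and the amount eaten can differ together. Age, sex and breed are not given in the sources used here.

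Pyruvate made from glucose has 2 main ways into the citrate cycle. The pyruvate dehydrogenase complex turns it into acetyl-CoA, and pyruvate dehydrogenase kinases switch this complex off by phosphorylation. Pyruvate carboxylase turns it into oxaloacetate, and citrate synthase joins oxaloacetate with acetyl-CoA. In fat cells citrate leaves the mitochondrion and supplies the carbon of new fatty acids, while phosphoenolpyruvate carboxykinase takes oxaloacetate the other way, into the glycerol backbone of triglyceride when glucose is scarce.

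Probes were 60 bases long. The sequences below are from probes of PC, CS, PDHA1, DLAT, PCK1 and PCK2, and they show where along each transcript those probes lie. For PC, CS and PDHA1 they include the described probe. For DLAT, PCK1 and PCK2 they are other probes, and the described ones start at bases 1953, 2499 and 2251. Only probes that run through, or end, a forward reading frame with no other stop codon are printed. In the PC probe at base 3477 the capitals mark a stop codon that closes such a frame, and in the CS pair they mark the run of 55 bases that both probes share. Positions are the probe starts in the target as given in the scanner files.
PC, base 285: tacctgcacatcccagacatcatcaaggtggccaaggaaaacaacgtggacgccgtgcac
PC, base 3477: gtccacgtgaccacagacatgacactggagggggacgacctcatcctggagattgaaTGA
CS, base 1074: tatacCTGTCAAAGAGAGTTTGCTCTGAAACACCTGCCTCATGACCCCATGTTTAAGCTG
CS, base 1079: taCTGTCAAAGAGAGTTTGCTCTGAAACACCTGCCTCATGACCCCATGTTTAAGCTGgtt
PDHA1, base 1137: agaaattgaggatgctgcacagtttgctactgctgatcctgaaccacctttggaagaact
DLAT, base 1064: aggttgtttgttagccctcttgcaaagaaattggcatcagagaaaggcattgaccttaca
PCK1, base 1953: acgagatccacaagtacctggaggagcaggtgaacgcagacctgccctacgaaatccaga
PCK2, base 1995: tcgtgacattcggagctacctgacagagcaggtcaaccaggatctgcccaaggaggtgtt
The 2 PC probes lie at opposite ends of the transcript and share no run. Probes of CS, DLD, PCK1 and PDK4 overlap in part, and 1 pair of CS probes has the same 60 bases, so the probes of a gene are not independent measurements.

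The tissue label was checked first. All 7 adipocyte markers (ADIPOQ, PLIN1, LIPE, FABP4, CIDEC, LEP and LPL) were well above background on all 24 arrays, with ADIPOQ between 7.11 and 8.41 and FABP4 between 8.25 and 8.77. These and all values below are log2 of the processed signal minus the 75th percentile of the array. The arrays fell into 17 bright ones, whose 75th percentile of signal was 414 to 663, and 7 dim ones, at 69.4 to 94.4. Dim arrays numbered 2 in RFIneg, 3 in RFIplR and 2 in RFIpl. All 7 were scanned on scan day 2, on which no RFIneg array was bright, so brightness and scan day overlap. Arrays are named by group and replicate number. RFIpl 2 stood apart: the summed level of 7 skeletal muscle markers was 10.51 there, against 3.63 to 5.45 on the other bright arrays. RFIpl 7 and RFIpl 8 carried SFN and DSP, the 2 measured of 5 listed keratinocyte markers. The other markers of that list, KRT5, KRT14 and KRT10, had no measured probe, so the cell type rests on a partial list. Results are therefore given with brightness class as a block, within each class, and without these arrays. The keratinocyte pair summed to at most 5.86 on bright RFIpl arrays, against at most 0.18 on bright RFIplR arrays and -0.64 on bright RFIneg arrays, and the part of these other cells in the results was not tested beyond leaving the arrays out.

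**Figure D1:**
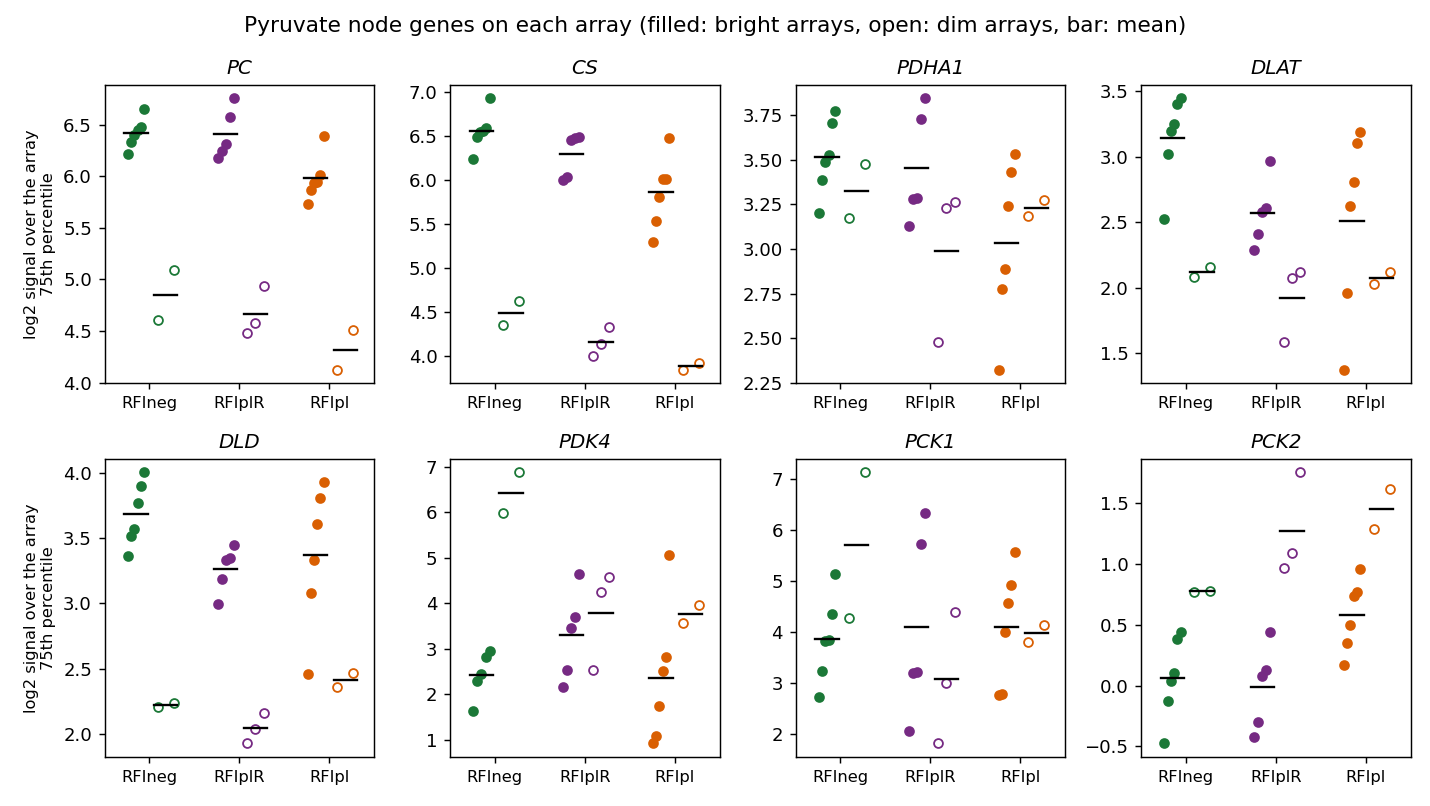
Log2 signal over the array 75th percentile of each member on every array, by group (RFIneg, RFIplR, RFIpl), with filled points for bright arrays, open points for dim arrays and bars for class means. PC and CS sit lower on dim than on bright arrays in each group, PDK4 sits highest on the 2 dim RFIneg arrays, and PC, CS and PCK2 overlap between RFIneg and RFIpl on the bright arrays.

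Brightness moved with the level of most members. The mean on bright arrays minus the mean on dim arrays was 2.07 for CS, 1.64 for PC, 1.25 for DLD, 0.73 for DLAT, 0.17 for PDHA1, -0.06 for PCK1, -0.96 for PCK2 and -1.86 for PDK4. Without a block, this spread stands in the error of each group comparison. RFIplR held 3 dim arrays and the other groups 2 each, so differences with RFIplR can themselves move with the block. RFIplR minus RFIpl was 0.19 without a block and 0.40 with it for PC, 0.13 and 0.39 for CS, and 0.20 and 0.22 for PDHA1. RFIneg minus RFIplR was 0.27 and 0.063 for PC.

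No member was called in any comparison when the 3 groups were fitted without a block (limma, adjusted p under 0.05 over 28606 probes). The share of all probes called in that fit was 0.206% for RFIneg against RFIpl, 0% for RFIneg against RFIplR and 0.297% for RFIplR against RFIpl. At the described probes, none of the 8 genes had an unadjusted p under 0.05 there either. Some of their other probes did, though none was called. For RFIneg against RFIpl these included the PCK2 probe at base 1995 (difference -0.74) and both CS probes at base 210 (0.62 and 0.63). They also included the PDHA1 probes at bases 671 and 748. For RFIneg against RFIplR the DLD probe at base 916 was among them (0.70). Among all 28606 probes, 1962 had such a p for RFIneg against RFIpl, 605 for RFIneg against RFIplR and 2341 for RFIplR against RFIpl. A test of any difference among the 3 groups called no member, with 0.28% of all probes called. In RFIneg against RFIpl, 7 of 8 genes were higher in RFIneg, with a median difference of 0.42, while 49.0% of all probes were higher and their median was -0.01.

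With brightness class as a block, 3 members were called in RFIneg against RFIpl, against a background of 6.62% of all probes. CS and PC were higher in RFIneg, as were 4.32% of all probes, and PCK2 was lower, as were 2.3%. In RFIplR against RFIpl, PC was called higher in RFIplR, where 10.4% of all probes were called (5.85% higher and 4.51% lower). In RFIneg against RFIplR no member was called and no probe of any gene passed (0% of 28606 in limma, 2714 at an unadjusted p under 0.05). CS, DLD and DLAT had unadjusted p values under 0.05 in that comparison. The test of any difference among the groups called CS (adjusted p = 0.00953) and PC (adjusted p = 0.0191), with 9.03% of probes called. The 3 comparisons share groups, so their differences are not independent of each other. In whole tissue, fewer cells of a type and less RNA per cell cannot be told apart.

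The calls depended on the model. With arrays weighted by their quality in place of a block, 5 members were called in RFIneg against RFIpl, where 10.7% of all probes were called: CS, PC and PCK2, and also PDHA1, higher in RFIneg by 0.47 (adjusted p = 0.0292), and DLAT, higher by 0.59 (adjusted p = 0.0414). That fit called 1 member in RFIplR against RFIpl (10.3%), which was PCK2, lower in RFIplR (difference -0.63, adjusted p = 0.0279), while PC stood at 0.41 (adjusted p = 0.102). It called none in RFIneg against RFIplR (0.014%) and 3 for any group difference (13%). With brightness as a block but without RFIpl 2, the same number of members was called as with it in each comparison, and the shares of all probes were 5.15%, 10.9%, 0% and 7.96% in the same order. Without RFIpl 2, 7 and 8, CS alone was called in RFIneg against RFIpl (0.93% of all probes) and no member in RFIplR against RFIpl (5.2%), in RFIneg against RFIplR (0%) or for any group difference (2.51%). With the replicate number added to brightness, CS and PC, 2 members, were called in RFIneg against RFIpl (3.86%), none in RFIplR against RFIpl (6.46%) or RFIneg against RFIplR (0%), and 1 for any group difference (4.73%). With scan day as a block, no member was called in any of the 3 comparisons. That fit called 47 of 28606 probes in RFIneg against RFIpl, 0 in RFIneg against RFIplR and 258 in RFIplR against RFIpl. With slide as a block, no member was called, and neither was any probe except in RFIplR against RFIpl (0.0874%, limma). At an unadjusted p under 0.05 that fit held 2413 probes for RFIneg against RFIpl, 2626 for RFIplR against RFIpl and 781 for RFIneg against RFIplR.

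**Figure D2:**
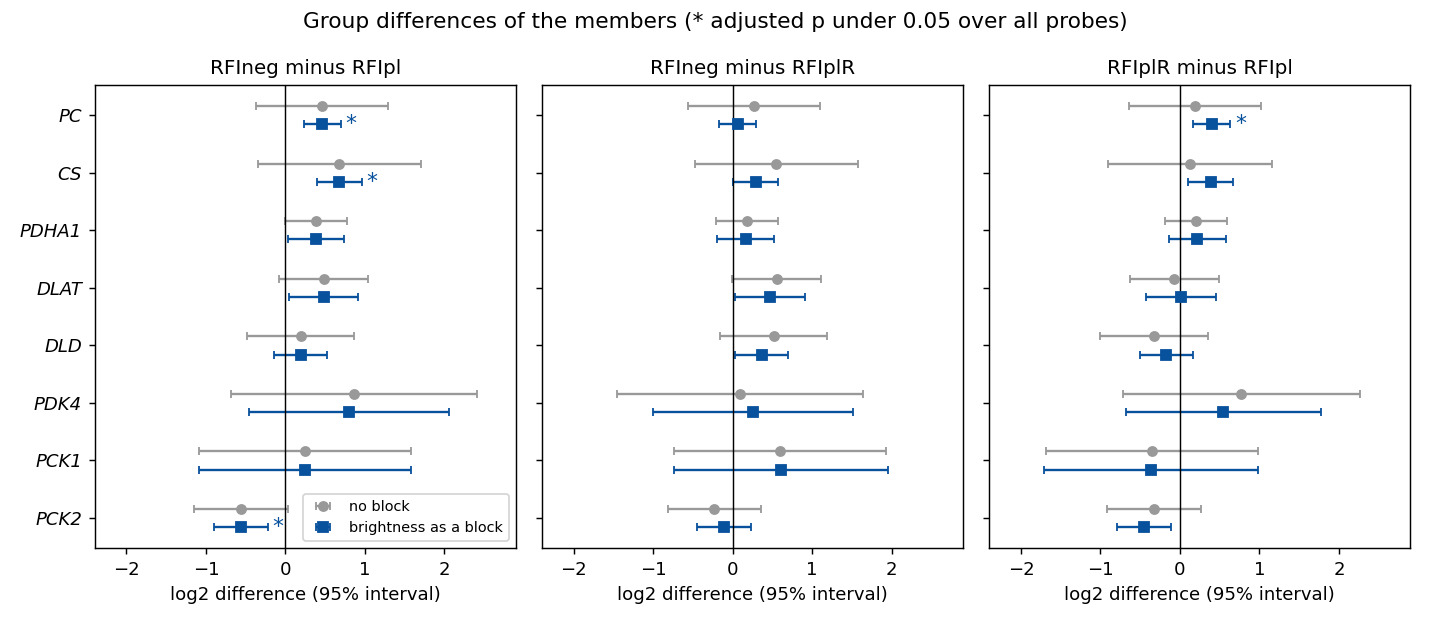
Log2 difference of each member with its 95% interval in the 3 comparisons, without a block (grey circles) and with brightness as a block (blue squares). Blue stars mark CS, PC and PCK2 in RFIneg minus RFIpl and PC in RFIplR minus RFIpl, and no grey point carries one.

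PC, the enzyme that makes oxaloacetate from pyruvate, was higher in RFIneg and in RFIplR than in RFIpl once brightness was taken as a block. On bright arrays its lowest, median and highest values were 6.22, 6.42 and 6.65 in 6 RFIneg pigs, 6.18, 6.31 and 6.75 in 5 RFIplR pigs, and 5.73, 5.94 and 6.39 in 6 RFIpl pigs. On dim arrays PC was 4.61 and 5.10 in RFIneg, 4.48, 4.57 and 4.94 in RFIplR, and 4.13 and 4.51 in RFIpl. All 6 bright RFIneg values lay above the RFIpl median, 4 of them above every RFIpl value. No share of all probes is given here for such counts on bright arrays, so they cannot be judged against one. The 2 groups did not overlap on the dim arrays, as was the case, with RFIneg higher, for 21.2% of all probes. RFIneg exceeded RFIpl by 0.46 ± 0.11 (SE), or 1.38-fold, with brightness as a block (limma, adjusted p = 0.0174). The 2nd PC probe, at base 285, gave 0.52, and both probes were called. RFIplR exceeded RFIpl by 0.40 ± 0.11 (1.32-fold, adjusted p = 0.0266), again at both probes. Without a block that difference was 0.19 at the described probe and 0.88 at the one at base 285 (limma, adjusted p = 0.999 for each). Between RFIneg and RFIplR the difference was 0.063, with a 95% interval of -0.17 to 0.30 (adjusted p = 0.89).

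The PC difference between RFIneg and RFIpl was 0.44 within the bright arrays (adjusted p = 0.082) and 0.53 within the dim ones (adjusted p = 0.576). It stayed called with each array in turn left out of the block fit, in 24 of 24 fits. Without RFIpl 2 it was 0.46 (adjusted p = 0.0295), and without RFIpl 2, 7 and 8 it was 0.38 (adjusted p = 0.15). With slide as a block the 2 probes differed widely, at 0.16 (adjusted p = 0.859) for the probe at base 3477 and 1.23 (adjusted p = 0.617) for the one at base 285. For RFIplR against RFIpl the call was kept in 20 of 24 such fits and lost without RFIpl 5, RFIpl 8, RFIplR 7 or RFIplR 8 (adjusted p = 0.0533 to 0.0628). Without RFIpl 2, 7 and 8 that difference was 0.32 (adjusted p = 0.15).

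CS, which condenses oxaloacetate with acetyl-CoA to citrate, was higher in RFIneg than in RFIpl in the same fit, and its RFIplR median lay between theirs on both classes of array. On bright arrays its lowest, median and highest values were 6.24, 6.55 and 6.93 in RFIneg, 6.0, 6.46 and 6.49 in RFIplR, and 5.30, 5.91 and 6.48 in RFIpl. On dim arrays they were 4.35 and 4.62 in RFIneg, 4.0, 4.13 and 4.33 in RFIplR, and 3.84 and 3.92 in RFIpl. Of the 6 bright RFIneg values, 5 lay above every RFIpl value, a count given without a share of all probes. The lowest value of all bright arrays was that of RFIpl 2. The difference between RFIneg and RFIpl was 0.68 ± 0.14 (SE), or 1.60-fold, with brightness as a block (limma, adjusted p = 0.00619). All 7 CS probes were called, with differences of 0.58 to 0.68. RFIplR exceeded RFIpl by 0.39 ± 0.14 (adjusted p = 0.072), and RFIneg exceeded RFIplR by 0.29 ± 0.14 (adjusted p = 0.508), neither past the threshold.

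The CS difference between RFIneg and RFIpl was 0.70 within the bright arrays (adjusted p = 0.0572) and 0.61 within the dim ones (adjusted p = 0.458). It was called in 24 of 24 block fits that each left out 1 array. It was 0.59 without RFIpl 2 (adjusted p = 0.0108) and 0.61 without RFIpl 2, 7 and 8 (adjusted p = 0.0498). With slide as a block it was 0.30 (adjusted p = 0.776). The other CS probes were less uniform in these checks. Without RFIpl 2, 5 of 7 probes were called, with adjusted p values up to 0.0566 (limma). Over the 7 probes the difference ran from 0.19 to 0.61 within the dim arrays and from 0.21 to 0.61 with slide as a block.

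Markers of fat cells moved the same way. With brightness as a block, ADIPOQ, PLIN1, LIPE and CIDEC were called higher in RFIneg than in RFIpl, by 0.27, 0.48, 0.55 and 0.76, and the other 3 of 7 adipocyte markers were also above 0 but not called. ADIPOQ and PLIN1 were called in RFIplR against RFIpl, by 0.29 and 0.39. The summed level of the 7 markers on bright arrays was 10.03 to 10.41 in RFIneg, 10.06 to 10.27 in RFIplR and 9.60 to 10.34 in RFIpl. On dim arrays it was 9.89 to 9.99 in RFIneg, 9.69 to 9.95 in RFIplR and 9.51 to 9.55 in RFIpl. None of the 7 measured skeletal muscle markers, and none of the 3 measured macrophage markers of 5 listed, was called in any comparison. Endothelial markers, all 4 of 4 measured, moved in the same comparisons. With brightness as a block, VWF was called higher in RFIneg than in RFIpl by 0.50 (adjusted p = 0.0186), while PECAM1, CDH5 and KDR, at 0.35, 0.31 and -0.31, were not called. In RFIplR against RFIpl, PECAM1 and CDH5 were called higher in RFIplR, by 0.50 and 0.52 (adjusted p = 0.0196 and 0.0167), and KDR was called lower (difference -0.74, adjusted p = 0.0496). The summed level of the 4 endothelial markers on bright arrays was 5.89 to 6.34 in RFIneg, 5.83 to 6.53 in RFIplR and 5.46 to 6.09 in RFIpl. On dim arrays it was 5.88 to 6.11 in RFIneg, 5.76 to 5.99 in RFIplR and 5.23 to 5.66 in RFIpl. The part of fat cell and endothelial markers in the PC, CS and PCK2 differences was not tested.

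PDHA1 and DLAT, the catalytic alpha subunit of the first enzyme of the pyruvate dehydrogenase complex and its acetyltransferase core, were not called in any comparison with brightness as a block or without a block. PDHA1 on bright arrays was 3.20, 3.51 and 3.77 (lowest, median, highest) in RFIneg, 3.13, 3.28 and 3.84 in RFIplR, and 2.32, 3.06 and 3.53 in RFIpl. DLAT on bright arrays was 2.52, 3.23 and 3.45 in RFIneg, 2.29, 2.58 and 2.97 in RFIplR, and 1.38, 2.72 and 3.19 in RFIpl. For both genes the lowest bright value was that of RFIpl 2, and all 3 groups overlapped. On dim arrays PDHA1 was 3.17 to 3.47 in RFIneg, 2.48 to 3.26 in RFIplR and 3.19 to 3.27 in RFIpl, and DLAT was 2.08 to 2.16, 1.59 to 2.12 and 2.03 to 2.12 in the same order.

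With brightness as a block, RFIneg minus RFIpl was 0.38 for PDHA1 (95% interval 0.03 to 0.74, adjusted p = 0.18) and 0.48 for DLAT (0.05 to 0.92, adjusted p = 0.168). Without RFIpl 2 these became 0.27 and 0.31. All 3 PDHA1 probes and both DLAT probes were above 0 in this comparison. The other DLAT probe, at base 1064, gave 0.29, and 0.078 without RFIpl 2. Within the dim arrays that probe gave -0.17. RFIneg minus RFIplR was 0.16 for PDHA1 (adjusted p = 0.788) and 0.47 for DLAT (adjusted p = 0.488). Of the bright RFIneg values of DLAT, 5 of 6 lay above every bright RFIplR value. The share of all probes with such a count is not given here, so it cannot be judged against one. RFIplR minus RFIpl was 0.22 for PDHA1 (adjusted p = 0.448) and 0.014 for DLAT (adjusted p = 0.977), and without RFIpl 2 it was 0.11 for PDHA1 and -0.15 for DLAT. Without RFIplR 6, RFIneg minus RFIplR was 0.069 for PDHA1.

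DLD, the dihydrolipoyl dehydrogenase that this complex shares with the 2-oxoglutarate and branched-chain complexes, passed neither of these tests. Its lowest, median and highest bright values were 3.36, 3.67 and 4.0 in RFIneg, 2.99, 3.33 and 3.45 in RFIplR, and 2.46, 3.47 and 3.93 in RFIpl. On dim arrays it was 2.21 and 2.24 in RFIneg, 1.93, 2.04 and 2.17 in RFIplR, and 2.36 and 2.46 in RFIpl. The lowest dim value was an RFIplR one and the highest an RFIpl one, and RFIpl 2 was the lowest bright array. RFIneg minus RFIplR was 0.36 with brightness as a block (95% interval 0.03 to 0.70, adjusted p = 0.482), and all 9 probes were above 0, at 0.18 to 0.79. RFIplR minus RFIpl was -0.17 (adjusted p = 0.534), with all 9 probes below 0. RFIneg minus RFIpl was 0.19 (adjusted p = 0.515) and ran from -0.063 to 0.28 over the probes. Without RFIpl 2, RFIneg minus RFIpl was 0.049 (adjusted p = 0.867) and RFIplR minus RFIpl was -0.31 (adjusted p = 0.11), and without RFIpl 1 RFIplR minus RFIpl was -0.11. The probe below 0 was the one nearest the start of the target, at base 229. DLD probes varied together less than those of the other genes with 3 or more probes, with correlations between pairs of probes of 0.33 to 0.97 over 24 arrays after class means were removed.

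**Figure D3:**
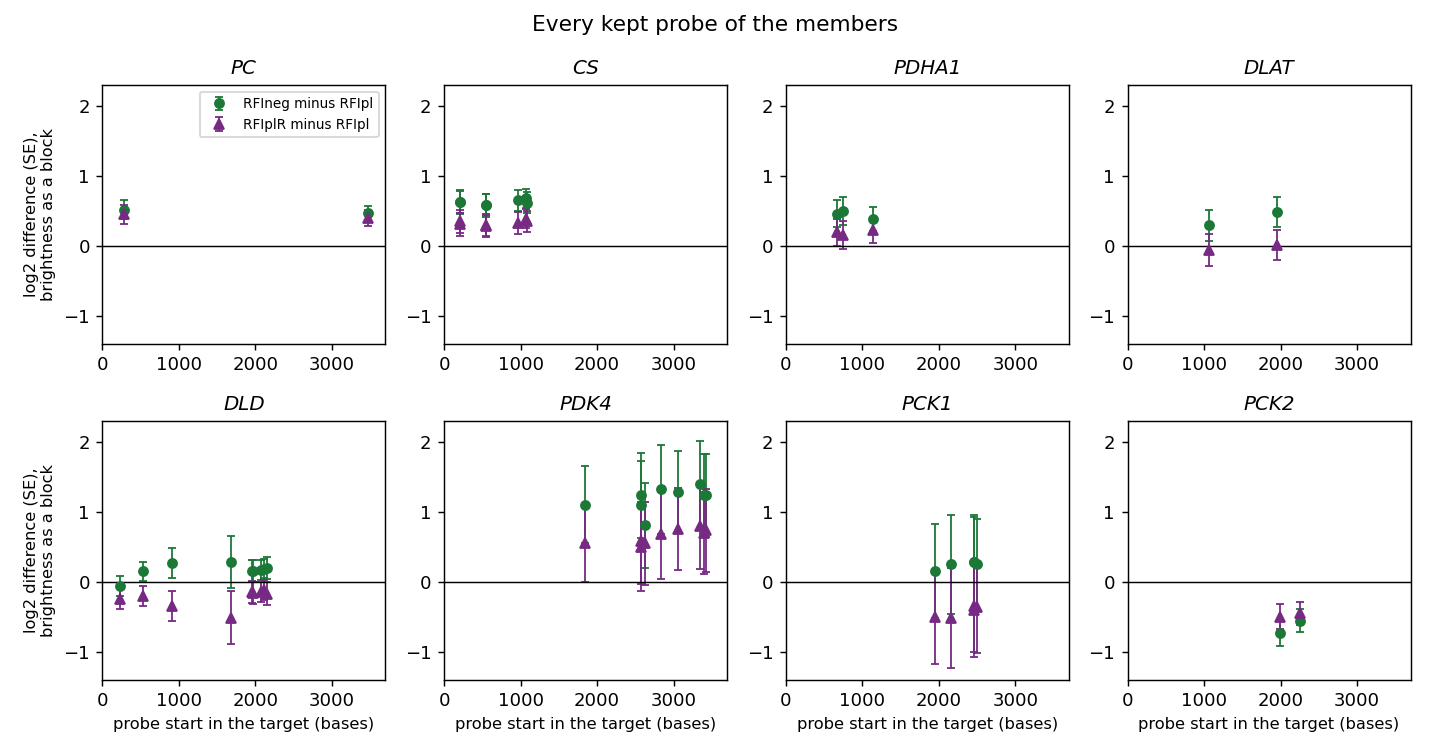
Log2 difference (points, with SE bars) of every measured probe of each member against the probe's start in its target, with brightness as a block, for RFIneg minus RFIpl (green circles) and RFIplR minus RFIpl (purple triangles). The 7 CS and 2 PC probes lie above 0 for both differences, the 2 measured PCK2 probes below 0, and the DLD and PCK1 triangles below 0.

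PDK4, a kinase that shuts down pyruvate dehydrogenase in fasted tissues, varied widely between pigs and did not separate the groups by the test. The PDK4 probe was missing on RFIneg 6, where its spot was not uniform, so 7 RFIneg values enter. On bright arrays the lowest, median and highest values were 1.63, 2.45 and 2.95 in 5 RFIneg pigs, 2.15, 3.47 and 4.65 in 5 RFIplR pigs, and 0.92, 2.13 and 5.05 in 6 RFIpl pigs. On dim arrays PDK4 was 5.99 and 6.88 in RFIneg, 2.52, 4.25 and 4.58 in RFIplR, and 3.57 and 3.96 in RFIpl. The 2 dim RFIneg arrays were thus the highest of all, and the highest bright value was that of RFIpl 2. RFIneg minus RFIpl was 0.80 (95% interval -0.46 to 2.06, adjusted p = 0.461) with brightness as a block, the lowest of the 9 probes, and the other 8 lay between 1.10 and 1.39, none of them called. Within the bright arrays it was 0.075, again the lowest, against 0.58 to 0.92 at the other 8 probes. It was 2.67 within the dim ones (adjusted p = 0.437). RFIneg minus RFIplR was -0.87 within the bright arrays (adjusted p = 0.84) and 2.65 within the dim ones (adjusted p = 0.552), so the sign depended on the class of array. Without RFIneg 7, RFIneg minus RFIpl was 0.43 with brightness as a block, and without RFIpl 2 it was 1.20 (adjusted p = 0.192). RFIplR minus RFIpl was 0.55 (adjusted p = 0.604), 0.25 without RFIplR 8 and 0.93 without RFIpl 2. Over the block fits that each left out 1 array, RFIneg minus RFIplR, 0.26 with all arrays (adjusted p = 0.925), ran from -0.16 without RFIneg 7 to 0.54 without RFIplR 8. The 9 PDK4 probes followed each other closely, at correlations of 0.978 or more.

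PCK1, the cytosolic phosphoenolpyruvate carboxykinase, was also uneven between pigs. Its lowest, median and highest bright values were 2.72, 3.83 and 5.13 in RFIneg, 2.06, 3.21 and 6.33 in RFIplR, and 2.77, 4.28 and 5.57 in RFIpl. On dim arrays PCK1 was 4.26 and 7.13 in RFIneg, 1.81, 3.0 and 4.40 in RFIplR, and 3.81 and 4.13 in RFIpl. The highest value of all was on the dim array RFIneg 7, which also held the highest PDK4, and the groups overlapped throughout the bright arrays. RFIneg minus RFIpl was 0.25 (95% interval -1.09 to 1.58, adjusted p = 0.867) with brightness as a block, and it ran from -0.20 without RFIneg 7 to 0.47 without RFIneg 8 when 1 array was left out. RFIneg minus RFIplR was 0.61 (adjusted p = 0.791), and it ran from 0.097 without RFIneg 7 to 1.04 without RFIplR 8. RFIplR minus RFIpl was -0.37 (adjusted p = 0.772), with all 5 probes below 0, and it ran from -0.79 without RFIplR 8 to -0.096 without RFIplR 4.

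PCK2, the mitochondrial phosphoenolpyruvate carboxykinase, was the 1 member lower in RFIneg than in RFIpl. Its lowest, median and highest bright values were -0.47, 0.07 and 0.44 in RFIneg, -0.42, 0.08 and 0.44 in RFIplR, and 0.17, 0.62 and 0.96 in RFIpl. On dim arrays PCK2 was 0.77 and 0.78 in RFIneg, 0.97, 1.09 and 1.76 in RFIplR, and 1.29 and 1.61 in RFIpl. All 6 bright RFIneg values and all 5 bright RFIplR values lay below the RFIpl median, counts given without a share of all probes. RFIneg minus RFIpl was -0.56 ± 0.16 (SE), a ratio of 0.68, with brightness as a block (limma, adjusted p = 0.0414). The 2nd probe gave -0.74 and was also called. It was well above background on 15 of 24 arrays, and the groups through which it passed the filter are not given here. It therefore adds no separate support for the call. The 2 measured PCK2 probes followed each other only loosely. Their correlation over 24 arrays was 0.51 after class means were removed, against 0.87 for the 2 PC probes. RFIplR minus RFIpl was -0.45 ± 0.16 (adjusted p = 0.0789) and RFIneg minus RFIplR was -0.11 (95% interval -0.44 to 0.23).

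The PCK2 call between RFIneg and RFIpl was kept in 13 of 24 block fits that each left out 1 array. It was lost without RFIneg 1, 3, 4, 6, 7 or 8 or without RFIpl 1, 4, 5, 7 or 8, at adjusted p values up to 0.0843. The difference itself stayed between -0.62 and -0.49. Within the bright arrays it was -0.52 (adjusted p = 0.145) and within the dim ones -0.68 (adjusted p = 0.537). It was -0.53 without RFIpl 2, 7 and 8 (adjusted p = 0.17) and -0.34 with slide as a block (adjusted p = 0.705).

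Several members varied together between pigs. Over the 28 pairs of members on the 17 bright arrays (16 where PDK4 enters), the closest was PDHA1 with CS (Pearson r = 0.902, permutation p = 1e-05, the smallest that 100000 permutations can give, adjusted p = 0.00028, and Spearman rho = 0.824, permutation p = 0.00018, adjusted p = 0.00252). Without the 2 arrays farthest from the PDHA1 median r was 0.788, and on the 11 bright arrays of scan day 1 it was 0.863. DLAT with CS gave r = 0.851 (adjusted permutation p = 0.00028) and rho = 0.816 (adjusted permutation p = 0.00252), with r = 0.667 without the 2 farthest arrays and 0.833 on scan day 1. PC with CS gave r = 0.780 (adjusted permutation p = 0.00174) and rho = 0.75 (adjusted permutation p = 0.00665), with r = 0.851 and 0.766 in the same 2 checks. DLAT with DLD gave r = 0.799 (adjusted permutation p = 0.00174), but 0.575 without the 2 farthest arrays and 0.437 on scan day 1. PDHA1 with DLAT gave r = 0.795 (adjusted permutation p = 0.00174), with 0.492 and 0.818 in the same checks. PDHA1 with DLD gave r = 0.600 (adjusted permutation p = 0.0414), with 0.127 and 0.26 in the same checks. Its rho of 0.431 did not pass (adjusted permutation p = 0.213). PC with PDHA1 gave r = 0.604 (adjusted permutation p = 0.0372), with 0.764 and 0.498. These correlations run over all 3 groups, so group differences are part of them.

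DLD and PDK4 ran in opposite directions, at r = -0.659 (adjusted permutation p = 0.026) and rho = -0.509 (adjusted permutation p = 0.162). Without the 2 arrays farthest from the DLD median r was -0.415, so the relation rests in part on those, and on 10 arrays of scan day 1 it was -0.624. PDK4 with PCK1 did not pass, at r = 0.529 (adjusted permutation p = 0.1) and rho = 0.441 (adjusted permutation p = 0.213), and r was 0.176 without the 2 farthest arrays and 0.042 on scan day 1.

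**Figure D4:**
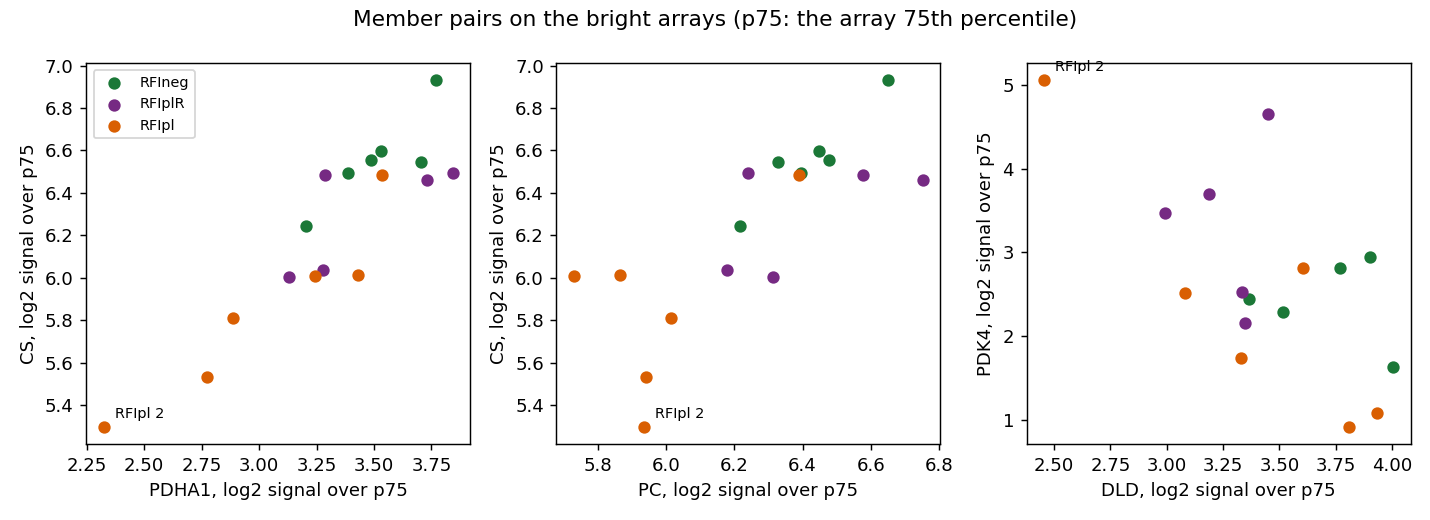
Log2 signal over the array 75th percentile of PDHA1 and CS, PC and CS, and DLD and PDK4 against each other on the bright arrays, coloured by group, with RFIpl 2 marked. CS is higher where PDHA1 and PC are higher, PDK4 is lower where DLD is higher, and RFIpl 2 lies at the low end of CS, PDHA1 and DLD and at the high end of PDK4.

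The genes most like a member were sought among 4221 other genes over the 24 arrays after class means of brightness were removed. For PC they were OAT (r = 0.896), the ornithine aminotransferase of the mitochondrion, DNAJB12 (r = 0.853) and ADIPOQ (r = 0.850), the adiponectin gene of fat cells. For PDK4, over 23 arrays, they were ANGPTL4 (r = 0.740), an inhibitor of lipoprotein lipase, BSCL2 (r = 0.716), the seipin of lipid droplets, and RAD52 (r = 0.713). For PCK1 they were RBP7 (r = 0.814), a retinol-binding protein, ICAM2 (r = 0.798) and FERMT1 (r = 0.754). All these pairs share array and scaling. No such genes could be sought for PDHB, which had no probe by the rule.

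Of 41 further genes of pyruvate supply, pyruvate dehydrogenase control, the citrate cycle and citrate export, 24 had a probe and 23 were measured. None was called without a block. With brightness as a block, 0 were higher and 1 was lower in RFIneg than in RFIpl, where 6.62% of all probes were called. In RFIplR against RFIpl 0 were higher and 2 were lower, where 10.4% of all probes were called, and none was called between RFIneg and RFIplR. Counts this small out of 23 genes do not stand above those shares. IDH2, the mitochondrial NADP-dependent isocitrate dehydrogenase, was lower in RFIneg than in RFIpl (difference -0.44 ± 0.10, SE, adjusted p = 0.0123) and lower in RFIplR than in RFIpl (difference -0.47 ± 0.10, adjusted p = 0.00536). PKM, the pyruvate kinase that makes pyruvate in most tissues, was lower in RFIplR than in RFIpl (difference -0.86 ± 0.21, adjusted p = 0.0113). The 3 with the smallest p between RFIneg and RFIplR without a block were PDK3, a pyruvate dehydrogenase kinase, at 0.54, ME1, the cytosolic malic enzyme that returns malate to pyruvate, at 1.27, and ACLY, which splits exported citrate, at 0.81, each with an adjusted p of 0.999. Without a block, 20 of the 23 genes were above 0 in RFIneg minus RFIpl, 21 in RFIneg minus RFIplR and 7 in RFIplR minus RFIpl, with medians of 0.30, 0.41 and -0.18. The numbers with brightness as a block were 20, 22 and 13, with medians of 0.30, 0.26 and 0.0040. Of the 11 measured citrate cycle genes, 10, 11 and 2 were above 0 without a block in the same 3 comparisons, and with it 10, 11 and 5. The 6 measured supply genes had 4, 6 and 2 above 0 without a block. The medians of all probes lay between -0.02 and 0.02 in these 6 cases.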

How the data were processed

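Per the labels, total RNA from 24 pigs was labelled with Cy3 and hybridised 1 sample per array. Each deposited array file gives the processed intensity of every spot, which Feature Extraction 10.7.3.1 had background-subtracted and detrended (per the file headers). The deposited value table holds log2 values that equal log2 of that intensity minus the array median (SD of the difference at most 4.5e-10), and it served as an alternative. The submitters' processing notes name R 2.10.0. No label or header names a genome build.

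Values were log2 of the processed intensity, floored at 1, minus the 75th percentile of each array. Control spots and spots marked as not uniform did not enter, and the spots of 1 probe were averaged. Probes well above background on at least 6 of 8 arrays of a group were kept (28606 of 43603). Accessions and identifiers were matched to RefSeq genes of Sscrofa11.1 for names only: 7185 probes were named by accession, 1366 by gene identifier, 3349 by the symbol in the files and 71 by an older symbol, 35 had several symbols and 31597 none.

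Groups were compared in limma 3.58.1 (R 4.3.3, lmFit and eBayes, all 24 arrays, two-sided, Benjamini-Hochberg over all kept probes, threshold 0.05). The fit without a block was tested on simulated data with known changes, which were larger than the member differences called here. The simulation did not cover the fits with a block or with array weights. Array brightness entered as a block in a further fit, and intervals are 95% from these fits. Correlations between members used 100000 permutations and Benjamini-Hochberg over 28 pairs. The R package data.table (version 1.17.8), Python 3.11.15, pandas 2.3.3, numpy 2.4.6, scipy 1.17.1 and matplotlib 3.10.9 were used. The named genes are all members, pathway genes past a test or, where none passed, the 3 with the smallest p, and the 3 genes most like PC, PDK4 and PCK1. The members, lists and tests were chosen with earlier results of these data known. The number of arrays limits the precision. Alternatives covered background correction, scaling, filters, the deposited table, variance models, array weights, blocks, subsets of arrays and each array left out in turn.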

Additional observations from a re-analysis of the deposited data

How the results depend on the processing

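The number of members called, 0 in each comparison without a block, moved in these settings. In RFIneg against RFIpl it was 5 with array weights, 3 with brightness as a block, 2 with the replicate number and brightness as blocks, 3 with brightness as a block without RFIpl 2, 1 without RFIpl 2, 7 and 8, and 2 to 3 over the block fits that left out 1 array. In RFIplR against RFIpl it was 1 with array weights, with brightness as a block and in that fit without RFIpl 2, and 0 to 3 when 1 array was left out. For any group difference it was 3 with array weights, 2 with brightness, 1 with the replicate number added, 2 without RFIpl 2 and 1 to 3 when 1 array was left out. In RFIneg against RFIplR it was 0 in every setting run (limma). Called counts over all probes were 59, 0 and 85 without a block, 1895, 0 and 2963 with brightness, and 0, 0 and 25 with slide as a block. Among the fits that left out 1 array, the share of all probes called is given here only for RFIpl 2. The ranges of member counts over those fits therefore stand without a background share and cannot be judged against it.

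With the replicate number alone as a block, 0 members were called in all 3 comparisons, and CS differed by 0.68 between RFIneg and RFIpl (adjusted p = 1). Same-numbered arrays correlated from -0.745 to 0.556, -0.797 to 0.643 and -0.819 to 0.879 in the 3 comparisons, so the numbers are not taken to pair the pigs. With the replicate number added to brightness, PCK2 was no longer called.

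Of 480 differences of single members under the other settings, 36 had the opposite sign to the fit without a block, none of them called. RFIneg minus RFIpl turned for PCK1 with array weights (-0.12), on bright arrays (-0.25) and on scan day 1 (-0.18), and for DLD with slide (-0.072) and scan day (-0.039) as a block and on dim arrays (-0.19). On scan day 2 it was -0.34 for CS, -0.71 for DLD, -0.19 for DLAT and -0.26 for PC, where both RFIneg arrays but 2 of 4 RFIpl arrays were dim. RFIneg minus RFIplR turned for PDK4 with array weights (-0.77), on bright arrays (-0.87) and on day 1 (-0.42). It turned for PCK2 with array weights (0.038), slide (0.092), bright arrays (0.074) and day 1 (0.28), and for PCK1 on bright arrays (-0.25) and day 1 (-0.064). It turned for PC with slide (-0.075), scan day (-0.022) and the mean over probes (-0.044), and on day 2 for CS (-0.24), DLD (-0.17) and PC (-0.33). RFIplR minus RFIpl turned with normexp for CS (-0.17), PC (-0.10) and PDHA1 (-0.074), on dim arrays for PDHA1 (-0.24) and on day 2 for CS (-0.10). It turned for PCK1 with slide (0.042) and on bright arrays (0.0039), and for DLAT with brightness (0.0143), brightness and replicate number (0.0065), bright arrays (0.061) and the mean over probes (0.0232). The causes were not tested. Scan day 3 held 1 array per group and was not fitted alone.

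When 1 array was left out, with or without brightness as a block, the sign turned for PDK4 (-0.46 to 0.54) in RFIneg minus RFIplR, for PCK1 (-0.20 to 0.47) in RFIneg minus RFIpl, and for CS (-0.089 to 0.47), PC (-0.012 to 0.46) and DLAT (-0.22 to 0.099) in RFIplR minus RFIpl. The fits without single arrays under brightness as a block, and the one without RFIpl 2, 7 and 8, were chosen after seeing the data.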

Other observations

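Some probes were described in the files as an enzyme of the pyruvate node but carried no symbol and no matching accession, so the rule did not take them. They were picked after the files were read. A probe described as pyruvate carboxylase was well above background on 24 of 24 arrays. With brightness as a block it was higher in RFIneg than in RFIpl by 0.44 (limma, adjusted p = 0.0123), higher in RFIplR than in RFIpl by 0.49 (adjusted p = 0.00406), and differed by -0.05 between RFIneg and RFIplR (adjusted p = 0.898). Without a block the first 2 differences were 0.44 (adjusted p = 0.176) and 0.50 (adjusted p = 0.0786). A probe described as a fragment of pyruvate dehydrogenase beta gave 0.38 for RFIneg minus RFIpl, 0.60 for RFIneg minus RFIplR and -0.22 for RFIplR minus RFIpl with brightness as a block (adjusted p = 0.467, 0.534 and 0.69). A probe described as like pyruvate dehydrogenase kinase 4 gave 1.12 for RFIneg minus RFIpl (adjusted p = 0.255), 0.91 for RFIneg minus RFIplR (adjusted p = 0.639) and 0.21 for RFIplR minus RFIpl (adjusted p = 0.867) in the same fit. A 4th measured probe was described by a partial match to a pyruvate dehydrogenase E1 alpha subunit of a parasite. With brightness as a block it was higher in RFIplR than in RFIpl by 0.51 (limma, adjusted p = 0.00669). Without a block that difference was 0.43 (limma, adjusted p = 0.506). In the block fit RFIneg minus RFIpl was 0.17 and RFIneg minus RFIplR was -0.34, neither called.

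None of the 24 groups of member values (8 genes in 3 groups) held an array whose gap to its nearest neighbour passed Dixon's 95% critical value for its number of arrays, although chance flags about 1 group in 20 by this rule. Each of these groups mixed bright and dim arrays. Where the dim arrays lie together and apart from the bright ones, they can hide a single outlying array, so the check cannot exclude one.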
